A study of Mus musculus with 24 samples.

Results

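The genes described here are the 8 subunits of the condensin complexes, namely Smc2, Smc4, Ncapd2, Ncapg, Ncaph, Ncapd3, Ncapg2 and Ncaph2. They were found by their symbols among the 49315 genes counted in each library, and all 8 were present. RNA was sequenced from primary astrocytes of the brain cortex of wild type C57BL/6J mouse embryos. The cultures received 0, 0.1 or 2 Gy of X-rays and were harvested 6 h or 24 h later, which gave 6 groups of 4 libraries. The 0 Gy cultures were mock-irradiated and are the controls of their own time. Within a time the libraries carry the numbers n1 to n4. Per the study new astrocytes were isolated for each experiment and cells of all embryos of a pregnant mouse were pooled, so no library stands for a single animal. The labels do not say what a number shares. The study asked how gene expression in astrocytes changes with dose and with time after irradiation.

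Condensins are ring-shaped complexes that fold chromatin into loops and compact the chromosomes for mitosis. Smc2 and Smc4 form the ATPase core of both complexes. Condensin I adds the kleisin Ncaph, which closes the ring, and the HEAT-repeat proteins Ncapd2 and Ncapg. Condensin II adds the corresponding Ncaph2, Ncapd3 and Ncapg2. Condensin II is in the nucleus during interphase, whereas condensin I reaches the chromosomes after the nuclear envelope breaks down. In the brain condensins are best known from dividing progenitors, and defects in their genes are a known cause of microcephaly.

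Total counts per library ranged from 14742855 to 38194800, and the 8 subunits had between 113 and 3532 counts in a library. The 12 astrocyte markers summed to between 2461 and 3523 CPM (counts scaled to a common library size) in every library, with Gjb6 at 0 counts in 3 libraries. The 12 microglia markers summed to between 1779 and 2911 CPM in n1, n3 and n4, and to between 314 and 369 CPM in n2 at both times. The neuron list summed to between 413 and 736 CPM, of which Stmn2 gave 181 to 322 and Map2 105 to 425 CPM, with Nefl at 0 counts in 6 libraries. The oligodendrocyte list summed to between 411 and 899 CPM, of which Olig1 gave 151 to 538 and Cnp 57.3 to 193 CPM, with Mobp at 0 in 16 libraries. The fibroblast and vessel list summed to between 3531 and 7853 CPM, of which Acta2 gave 2930 to 7369 CPM, and Cldn5 was at 0 in 21 libraries. The mock library n3 at 24 h was the lowest of the 4 mock libraries of that time in 5 subunits and the highest in the other 3, although in none of them far enough for Dixon's outlier criterion. It also had the highest mean GC content weighted by counts, 50.91% against 48.87% to 50.13%. The main results at 24 h are therefore also given without n3.

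Promoters were examined because most subunits moved together. The cell cycle genes homology region (CHR, TTTGAA), the CCAAT box and words of the E2F type (TTTGGCGC, TTTCGCGC, TTCCCGCC and TTTCCCGC, of which TTTCCCGC and TTCCCGCC can overlap) are known from promoters of genes transcribed in the G2/M and S phases. They were searched on both strands in the 250 bases before and 50 bases after each RefSeq start site (GRCm38.p6). A window was present for 7 of the 8 genes, with 2 windows for Ncapd3 and none for Smc4. The CHR was found for 5 of the 7 genes, against 17.9% of all promoter windows. For Ncapd3 it was found only in the window at the later start site. Counts here are per gene with any matching window, whereas the shares are per window. CCAAT was found for 3 genes against 37.4% of all windows, CHR and CCAAT together for 3 genes against 7.0%, and a word of the E2F type for 3 genes against 3.5%. The 250 bases before the start site are shown for 4 genes with a match, for Ncaph, which had none and was lower after 2 Gy, and for Ncaph2, which had none and was not called in any comparison. Capitals mark the words on either strand.
Smc2, chr4:52438971-52439220, plus strand: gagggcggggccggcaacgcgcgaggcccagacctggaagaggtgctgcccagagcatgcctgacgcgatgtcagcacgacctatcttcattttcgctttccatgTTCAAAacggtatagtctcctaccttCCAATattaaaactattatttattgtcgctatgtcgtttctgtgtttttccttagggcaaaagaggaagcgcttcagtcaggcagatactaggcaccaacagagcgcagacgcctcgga
Ncapd2, chr6:125191587-125191836, minus strand: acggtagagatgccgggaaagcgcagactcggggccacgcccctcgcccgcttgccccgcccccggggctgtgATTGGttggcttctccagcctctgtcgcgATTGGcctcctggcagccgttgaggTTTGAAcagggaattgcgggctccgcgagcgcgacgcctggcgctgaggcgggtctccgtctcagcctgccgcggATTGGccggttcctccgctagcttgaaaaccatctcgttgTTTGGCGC
Ncapg, chr5:45669675-45669924, plus strand: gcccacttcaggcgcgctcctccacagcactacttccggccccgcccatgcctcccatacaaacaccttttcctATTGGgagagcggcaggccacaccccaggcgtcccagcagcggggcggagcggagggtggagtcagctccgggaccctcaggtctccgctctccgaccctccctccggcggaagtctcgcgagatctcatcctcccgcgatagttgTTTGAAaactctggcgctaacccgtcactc
Ncapg2, chr12:116405186-116405435, plus strand: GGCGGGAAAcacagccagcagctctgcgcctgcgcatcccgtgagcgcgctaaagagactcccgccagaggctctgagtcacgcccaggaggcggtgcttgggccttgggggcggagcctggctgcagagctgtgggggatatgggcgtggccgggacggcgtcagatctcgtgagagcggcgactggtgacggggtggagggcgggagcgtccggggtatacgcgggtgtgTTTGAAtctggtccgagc
Ncaph, chr2:127133955-127134204, minus strand: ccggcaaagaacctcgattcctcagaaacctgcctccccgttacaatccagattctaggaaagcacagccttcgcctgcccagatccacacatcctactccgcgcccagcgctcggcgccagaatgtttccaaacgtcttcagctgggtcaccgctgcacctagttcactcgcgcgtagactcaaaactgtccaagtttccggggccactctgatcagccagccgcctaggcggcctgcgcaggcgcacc
Ncaph2, chr15:89355469-89355718, plus strand: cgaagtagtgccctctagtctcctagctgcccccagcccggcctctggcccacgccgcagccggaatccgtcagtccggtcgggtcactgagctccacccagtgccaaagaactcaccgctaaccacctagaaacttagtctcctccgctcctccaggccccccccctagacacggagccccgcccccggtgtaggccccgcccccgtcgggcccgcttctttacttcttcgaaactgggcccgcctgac

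Counted from the start site at 0, the CHR of Ncapg lay at -30 to -25 and that of Ncapg2 at -18 to -13. Ncapd2 held a CHR at -123 to -118, CCAAT words beginning at -177, -148 and -48, and TTTGGCGC at -8 to -1. Smc2 had a CHR word at -145 to -140 and CCAAT at -119 to -115. The CHR word of Ncapd3 lay at -249 to -244 of the window at the later of its start sites. A match is a string of letters and does not show binding, and the absence of a match concerns these letters and this window only.

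In mock-irradiated astrocytes the 8 mRNAs were present at unequal levels. Per kb of exon, Smc4 had 16.4 ± 2.96 CPM (SD, n = 4) at 6 h and 19.9 ± 3.14 at 24 h, and Ncaph2, the kleisin of condensin II, had 17.4 ± 1.48 and 17.3 ± 3.42. Smc2 with 9.85 ± 2.25 and 11.3 ± 3.08 and Ncapd2 with 9.75 ± 1.17 and 9.70 ± 2.09 followed. Lower levels were found for Ncaph with 5.08 ± 0.68 and 4.58 ± 0.39, and for Ncapg2 with 4.597 ± 0.95 and 4.69 ± 0.92. The lowest levels per kb were those of Ncapd3 with 2.48 ± 0.41 and 3.50 ± 0.77 and of Ncapg with 2.06 ± 0.56 and 2.41 ± 0.57. The 8 genes thus formed 4 pairs of neighbours whose libraries overlapped at both times, Smc4 with Ncaph2, Smc2 with Ncapd2, Ncaph with Ncapg2, and Ncapd3 with Ncapg. With all exons as the length, the libraries at 6 h of neighbours in the order did not overlap from a pair to the next. At 24 h Ncaph2 also overlapped with Smc2, and Ncapg2 with Ncapd3. With the longest transcript in place of all exons as the length, Ncapd2 moved above Smc2 at both times, Ncapg moved above Ncapd3 at 6 h and Ncaph above Ncapg2 at 24 h. With that length the 4 pairs were no longer separate at 6 h, where Smc2 overlapped with Ncaph and Ncapg2 with Ncapg.

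**Figure D1:**
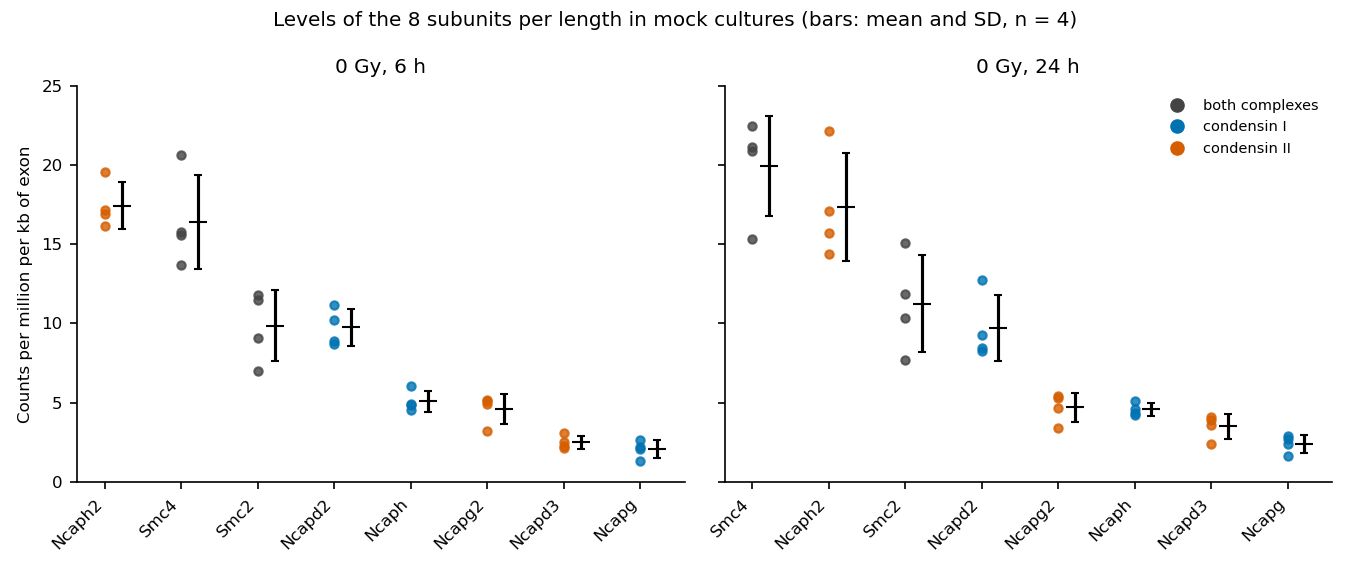
Levels of the 8 subunits in the mock-irradiated groups at 6 h (left) and 24 h (right), in CPM per kb of exon. Points are the 4 libraries, black bars the mean and SD; Smc4 and Ncaph2 are highest, Ncapd3 and Ncapg lowest, and at 6 h the genes form 4 pairs that overlap within but not between neighbouring pairs.

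Subunits of condensin I were not uniformly higher or lower than their counterparts of condensin II. Per length, Ncapd2 was 3.95 times as high as Ncapd3 in the mock group at 6 h and 2.79 times as high at 24 h. Ncapg stood at 0.442 times Ncapg2 at 6 h and 0.51 times at 24 h, and Ncaph at 0.29 and 0.267 times Ncaph2. The exons of Ncapg share 944 bases (13.4%) with Lcorl on the other strand, and those of Ncaph2 share 827 bases with Sco2 and 535 bases with Tymp, also on the other strand. Whether counting used the strand is not given in the sources used here. Sco2 had at most 2 counts and Tymp at most 133 in a library, against at least 991 for Ncaph2. Lcorl had up to 954 counts over its 18855 exon bases. If these lay evenly, the shared bases would hold 5.61 to 47.8 of them in a library, which is 3.97% to 15.95% of the count of Ncapg.

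24 h after 2 Gy, 7 of the 8 subunits were lower than in mock-irradiated cells and Ncaph2 was not. All 7 were lower in each of the 4 pairs of libraries with the same number. In edgeR's quasi-likelihood fit with a block for n1 to n4 (the replicate block), these 7 fell at a Benjamini-Hochberg adjusted p under 0.05, the threshold used throughout, and none rose. In that fit 6.69% of the 15892 genes tested were called lower. Without the block, in a fit by group alone, edgeR called 0 of the 8, as it did 0% of all genes, with the lowest adjusted p of a subunit at 0.236 for Ncaph. In this unblocked fit 7 of the 8 had an unadjusted p under 0.05 and a lower level, against 2.17% of all genes. The libraries of both groups did not overlap in 5 of the 8, against 2.01% of all genes. The median log2 fold change of the 8 was -0.78 and that of all genes 0.01. In bulk RNA, fewer dividing cells and less mRNA per cell cannot be told apart.

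The core subunits Smc2 and Smc4 were both lower. Smc2 (ENSMUSG00000028312, chr4:52439243-52488260) had 65.0, 82.6, 42.2 and 56.8 CPM in the mock libraries n1 to n4 and 32.4, 37.2, 16.6 and 33.7 CPM after 2 Gy. Every 2 Gy library lay below every mock library, and n3 was the lowest in both groups. The mean went from 61.6 ± 16.9 to 30.0 ± 9.15 CPM, a log2 fold change of -1.06 ± 0.11 (SE, blocked, adjusted p = 0.00248) or -1.03 ± 0.30 (unblocked, adjusted p = 0.743). Smc4 (ENSMUSG00000034349, chr3:69004738-69034623) had 109, 117, 80.0 and 110 CPM in the mock libraries and 56.4, 57.3, 64.5 and 74.0 CPM after 2 Gy. The groups again did not overlap, and n3 had the smallest difference of the 4 pairs, with a log2 ratio of -0.31 against -1.03 in n2. Its log2 fold change was -0.71 ± 0.13 (blocked, adjusted p = 0.0148) and -0.72 ± 0.17 (unblocked, adjusted p = 0.414).

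Of the condensin I subunits, Ncapg, one of the HEAT-repeat proteins, had the largest decrease of the 8 genes in the blocked and unblocked fits of all 4 numbers, but not with the correction for GC content and length, where Ncaph and Ncapg2 were lower, nor in the blocked fit without n1, where Ncapg2 was. Ncapg (ENSMUSG00000015880, chr5:45669919-45700546) had 19.0, 20.6, 11.4 and 17.04 CPM in the mock libraries and 7.70, 7.81, 5.37 and 8.39 CPM after 2 Gy. The groups did not overlap, and the level after 2 Gy was 0.434 times the mock level as the mean of the 4 pairs. Its log2 fold change was -1.20 ± 0.11 (blocked, adjusted p = 0.00186) and -1.21 ± 0.25 (unblocked, adjusted p = 0.274). The kleisin Ncaph (ENSMUSG00000034906, chr2:127103809-127133954) had 19.8, 18.7, 22.1 and 18.3 CPM in the mock libraries and 10.6, 11.2, 11.9 and 10.5 CPM after 2 Gy. The groups did not overlap, and the log2 ratios of the 4 pairs lay between -0.91 and -0.74. The log2 fold change of Ncaph was -0.83 ± 0.10 (blocked, adjusted p = 0.00341) and -0.83 ± 0.16 (unblocked, adjusted p = 0.236). Ncapd2 (ENSMUSG00000038252, chr6:125168007-125191701), the other HEAT-repeat protein, had 51.9, 58.1, 80.0 and 53.1 CPM in the mock libraries and 38.5, 38.1, 47.0 and 39.7 CPM after 2 Gy. Here n3 was the highest library of both groups, the opposite of Smc2. The log2 fold change of Ncapd2 was -0.55 ± 0.09 (blocked, adjusted p = 0.0140) and -0.57 ± 0.17 (unblocked, adjusted p = 0.925), the smallest of the 7 in both fits, and -0.62 ± 0.07 with GC content and length corrected, where Smc4 and Ncapd3 were smaller.

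Condensin II was divided. Ncapd3 (ENSMUSG00000035024, chr9:27030175-27095315), a HEAT-repeat protein, had 31.0, 32.3, 18.8 and 28.4 CPM in the mock libraries and 21.5, 18.7, 10.9 and 20.7 CPM after 2 Gy. Its groups overlapped, because the mock library n3 lay within the range of the 2 Gy libraries. The log2 fold change was -0.64 ± 0.10 (blocked, adjusted p = 0.0115) and -0.62 ± 0.27 (unblocked, adjusted p = 0.940). Ncapg2 (ENSMUSG00000042029, chr12:116405402-116463531) had 35.9, 34.8, 22.5 and 30.7 CPM in the mock libraries and 23.6, 13.4, 7.40 and 19.9 CPM after 2 Gy. Its pairs differed most among themselves, with log2 ratios from -1.61 in n3 to -0.61 in n1. The log2 fold change of Ncapg2 was -1.03 ± 0.17 (blocked, adjusted p = 0.0133) and -0.94 ± 0.34 (unblocked, adjusted p = 0.940). Ncaph2 (ENSMUSG00000008690, chr15:89355719-89372826) had 71.7, 60.3, 93.1 and 66.0 CPM in the mock libraries and 74.6, 66.4, 96.9 and 70.1 CPM after 2 Gy. It was slightly higher in 4 of 4 pairs, by a log2 ratio of 0.06 to 0.14, and n3 was highest in both groups. The log2 fold change of 0.09 ± 0.08 did not pass the test (blocked, adjusted p = 0.491), and it was -0.10 ± 0.06 after correction for GC content and length.

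**Figure D2:**
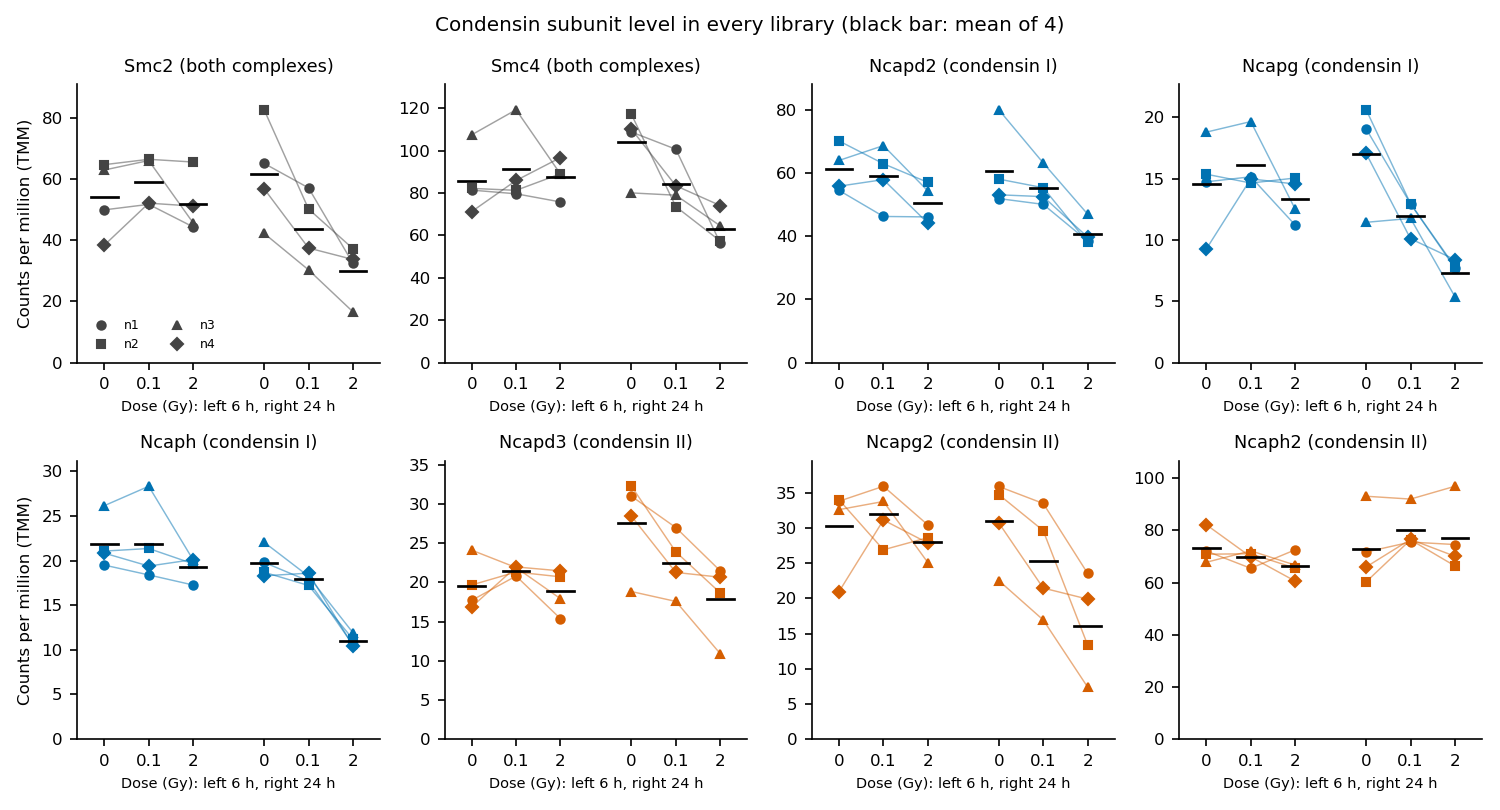
CPM of the 8 subunits in all 24 libraries, by dose at 6 h (left in each panel) and 24 h (right). Symbols give the number n1 to n4, lines join the same number within a time, and black bars are means of 4; at 24 h every 2 Gy point lies below the mock point of its number in 7 panels and slightly above it for Ncaph2.

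The calls at 2 Gy and 24 h depended on the fit. DESeq2 without the block called 3 of the 8, Smc4, Ncapg and Ncaph (Wald test, adjusted p = 0.0464, 0.00194 and 0.000162), and edgeR on all 24 libraries called the same 3 (adjusted p = 0.0269, 0.00370 and 0.00146). DESeq2 called 0.711% and this fit 0.617% of all genes lower. Unblocked limma voom called 0 of the 8 and 0 of 15892 genes. With the block DESeq2 and limma voom each called 7 of the 8 lower, beside 1255 of 13641 (DESeq2) and 1060 of 15892 (limma voom) genes. In the blocked fit without n1, n2, n3 or n4 the number called was 4, 3, 7 and 4, against 0.680%, 0.376%, 16.4% and 0.875% of all genes called lower, and Smc2, Ncapg and Ncaph were among those called each time. Without n3 the 7 log2 fold changes lay between -1.23 and -0.48. The GC content of transcripts went with the fold change: across 15855 genes Pearson's r was 0.56, and over the 8 subunits, which range from 34.8% (Ncapg) to 55.7% (Ncaph2), it was 0.84. Genes share the libraries and are not independent, so these are descriptions. With splines for GC content and length in the blocked fit, r over the 8 subunits was 0.50 and 6 of the 8 were called lower, against 2.14% of all genes. Smc4 was then at -0.41 ± 0.11 (adjusted p = 0.0642), Smc2 at -0.69 ± 0.08, Ncapg at -0.80 ± 0.09, Ncapg2 at -0.82 ± 0.15 and Ncapd3 at -0.46 ± 0.08, whereas Ncaph stayed at -0.83 ± 0.09 (adjusted p = 0.00238). The summed microglia markers ranged from 314 to 2165 CPM in mock and from 329 to 2423 CPM in 2 Gy libraries, and in n1 to n4 they were 1779, 314, 2135 and 2165 CPM against 2060, 329, 2423 and 2240 CPM. Their part in the result was not tested.

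**Figure D3:**
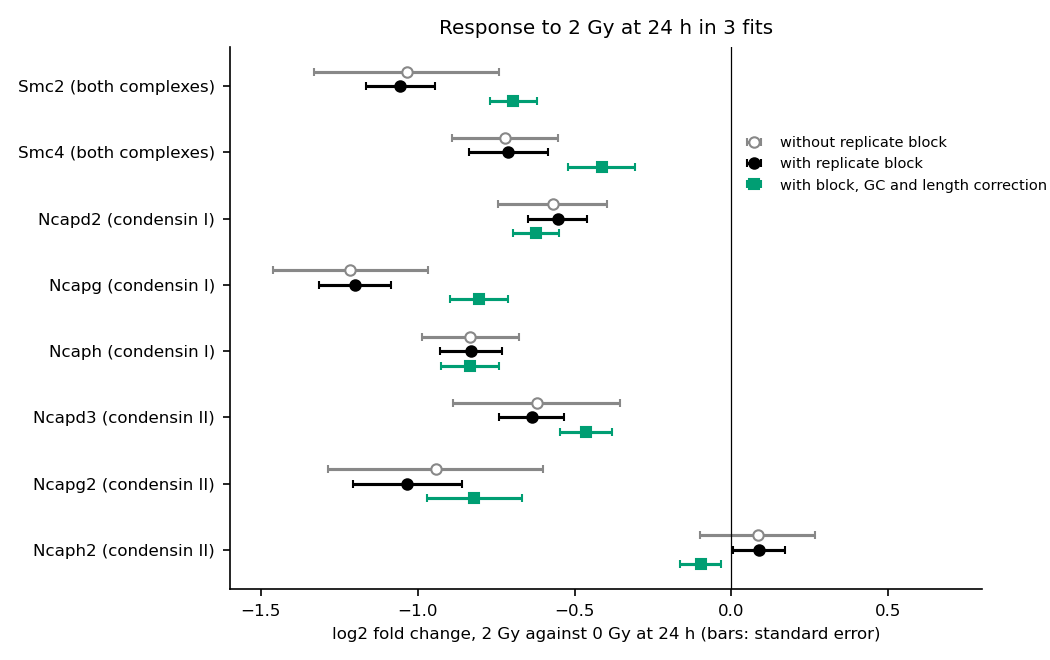
Log2 fold changes of the 8 subunits, 2 Gy against 0 Gy at 24 h, with standard errors, in edgeR without the replicate block, with it, and with it plus a correction for GC content and length. The block narrows the bars and moves Ncapg2 from -0.94 to -1.03; the correction moves Smc2, Smc4, Ncapg, Ncapd3 and Ncapg2 towards 0 and Ncapd2 away from it, turns Ncaph2 from 0.09 to -0.10, and leaves Ncaph at -0.83.

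By complex, both shared subunits and all 3 condensin I subunits had groups that did not overlap, and 0 of 3 condensin II subunits did. This rested on the mock library n3: without it Ncapd3 and Ncapg2 did not overlap either, which made 7 of the 8 subunits against 8.11% of all genes. The medians of the unblocked log2 fold changes were -0.88 for the shared, -0.83 for the condensin I and -0.62 for the condensin II subunits, and with the block and the correction for GC content and length they were -0.55, -0.80 and -0.46, so that the order of the first 2 changed. To compare the complexes directly, the log2 ratio of each condensin I subunit to its counterpart was compared between dose and mock in a two-sided exact permutation test, for 3 ratios and 4 comparisons. The ratio of Ncaph to Ncaph2 was -1.90, -1.73, -2.12 and -1.89 in the mock libraries at 24 h and -2.86, -2.60, -3.06 and -2.78 after 2 Gy. It was lower in 4 of 4 pairs, by 0.92 ± 0.04 (SD of the pairs) on the log2 scale, and the groups did not overlap. The exact p of 0.0286 was the smallest that 4 against 4 libraries allow, and it was 0.343 after adjustment over the 12 tests. The ratio of Ncapd2 to Ncapd3 differed by 0.09 ± 0.07 (exact p = 0.543, adjusted 0.754), and n3 stood at 2.42 in mock and 2.44 after 2 Gy, where the other libraries were between 1.08 and 1.36. The ratio of Ncapg to Ncapg2 differed by -0.15 ± 0.52 (exact p = 0.629, adjusted 0.754). Within pairs, sign flips cannot give a p under 0.125 with 4 numbers. This value was reached after 2 Gy at 24 h by Ncaph to Ncaph2 (lower in 4 of 4 pairs) and by Ncapd2 to Ncapd3 (lower in 0 of 4). After 0.1 Gy Ncaph to Ncaph2 reached it at both times, but in opposite directions. It was lower in 4 of 4 pairs at 24 h and in 0 of 4 at 6 h, where the difference was 0.06. None of the 12 ratio tests passed the adjustment, which a single test at the smallest possible p could not do. Without n3 in both groups the differences after 2 Gy at 24 h were -0.91 for Ncaph to Ncaph2, 0.11 for Ncapd2 to Ncapd3 and -0.37 for Ncapg to Ncapg2. None of these ratios was corrected for GC content, which differed between counterparts. It was 54.0% for Ncapd2 and 46.8% for Ncapd3, 34.8% for Ncapg and 44.3% for Ncapg2, and 48.3% for Ncaph and 55.7% for Ncaph2. With the block and the correction for GC content and length, Ncapd2 was at -0.62 and Ncapd3 at -0.46 (2 Gy, 24 h). Ncapg and Ncapg2 were at -0.80 and -0.82, and Ncaph and Ncaph2 at -0.83 and -0.10.

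At 6 h edgeR called no condensin subunit at either dose, with or without the block, and no other gene (0% of all genes tested). DESeq2 also called 0 of the 8 at either dose with and without the block, and after 2 Gy it called 1 other gene lower without the block, and 9 lower and 57 higher with it. At an unadjusted p under 0.05 edgeR gave 0 of the 8 without the block at either dose, where 0.725% (2 Gy) and 0.0936% (0.1 Gy) of all genes were lower at that p. With the block it gave 1, Ncapd2, after 2 Gy, against 3.33% of all genes, and limma voom called 0 of the 8 with and without the block. The log2 fold changes after 2 Gy lay between -0.28 for Ncapd2 and 0.03 for Smc4 in the unblocked fit. Ncapd2 had 54.5, 70.1, 64.0 and 55.8 CPM in the mock libraries at 6 h and 46.1, 57.0, 54.3 and 44.1 CPM after 2 Gy. It was lower in 4 of 4 pairs, by log2 ratios of -0.34 to -0.24, although the groups overlapped and the adjusted p was 0.475 (edgeR, blocked). Ncaph was also lower in 4 of 4 pairs, by -0.38 to -0.05, with an adjusted p of 0.682. Of the other subunits Smc2, Smc4 and Ncapd3 were lower in 2 of 4 pairs, and Ncapg, Ncapg2 and Ncaph2 in 3 of 4. With the block and the correction for GC content and length all 8 log2 fold changes after 2 Gy at 6 h were negative, between -0.28 and -0.08. In that fit 5 of the 8 had an unadjusted p under 0.05 and were lower, against 6.15% of all genes, and 0 were called, against 0.213%, with the lowest adjusted p at 0.0614 for Ncapd2 (edgeR). After 0.1 Gy the 8 log2 fold changes at 6 h were between -0.07 and 0.17, and the lowest adjusted p was 0.885 (edgeR, blocked).

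The response to 2 Gy was more negative at 24 h than at 6 h for 7 of the 8 subunits. The interaction of 2 Gy and time was called for 0 of the 8 without the block, as for 0% of all genes, with an adjusted p of 0.819 for 7 of them, and DESeq2 and limma voom without the block also called 0. An unadjusted p under 0.05 and a negative value were found for 4, Smc2, Smc4, Ncapg and Ncaph, against 2.57% of all genes. With the block it was called for Smc2, Smc4, Ncapg, Ncaph and Ncapg2, against 3.23% of all genes called lower. The differences of the log2 fold changes (24 h minus 6 h) were -0.99 ± 0.18 for Smc2, -0.75 ± 0.18 for Smc4, -1.08 ± 0.23 for Ncapg, -0.64 ± 0.13 for Ncaph and -0.92 ± 0.24 for Ncapg2, with adjusted p between 0.0335 and 0.0417 (edgeR). Ncapd3 at -0.57 ± 0.17 (adjusted p = 0.0560) and Ncapd2 at -0.27 ± 0.12 (adjusted p = 0.154) did not pass, and Ncaph2 was at 0.24 ± 0.13 (adjusted p = 0.220). DESeq2 with the block called 6, with Ncapd3 in addition (-0.59, adjusted p = 0.0224), against 10.6% of all genes called lower, and limma voom with the block called 5, against 3.21%. Without n1 or n2 the blocked edgeR fit called 0 of the 8 (0% of all genes), without n3 it called 6, against 11.3% of all genes, and without n4 it called 1, against 0.407%. With the correction for GC content and length 3 were called, Smc2, Ncapd2 and Ncaph, against 1.32% of all genes.

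At the low dose of 0.1 Gy, Smc2 and Ncapg were lower at 24 h in the blocked fit. Smc2 had 57.1, 50.2, 30.3 and 37.4 CPM after 0.1 Gy and was lower than its mock partner in 4 of 4 pairs, although the groups overlapped. Ncapg had 12.9, 13.0, 11.8 and 10.1 CPM and was lower in 3 of 4 pairs, with n3 the exception. The log2 fold changes were -0.51 ± 0.10 for Smc2 (edgeR, blocked, adjusted p = 0.0262) and -0.49 ± 0.13 for Ncapg (adjusted p = 0.0432). These were 2 of the 8 subunits, against 4.50% of all genes called lower in the blocked fit, and without the block 0 of the 8 were called, as were 0% of all genes. In that fit 1 of the 8 (Ncapg) had an unadjusted p under 0.05, against 0.877% of all genes lower at that p. DESeq2 and limma voom called 0 of the 8 without the block and 2 with it. With the block they called 1006 of 12000 (DESeq2) and 691 of 16183 (limma voom) genes lower. None of the 8 had groups that did not overlap, against 0.544% of all genes. Smc4, Ncapd3 and Ncapg2, at -0.31 ± 0.11, -0.30 ± 0.10 and -0.32 ± 0.11, had adjusted p between 0.0724 and 0.0824. Ncapd2 and Ncaph were at -0.13 ± 0.09 and -0.15 ± 0.10, and Ncaph2 was at 0.14 ± 0.09 (adjusted p = 0.347).

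The calls at 0.1 Gy depended on single numbers, and the values moved with the correction for GC content and length. Without n2 or n4 the blocked fit called 0 of the 8, without n1 it called 1 (Smc2), and without n3 it called 4 (Smc2, Smc4, Ncapg and Ncapd3). Of all genes these fits called 0.118% (without n2), 0.0925% (n4), 4.30% (n1) and 11.8% (n3) lower. The log2 fold changes moved less, between -0.60 and -0.45 for Smc2 and between -0.67 and -0.39 for Ncapg. Over the 8 subunits the fold change and GC content had a Pearson's r of 0.915. With the correction for GC content and length 0 of the 8 were called, against 0.365% of all genes, and Smc2 and Ncapg were at -0.19 ± 0.08 and -0.15 ± 0.10. All 8 were then between -0.20 and -0.03. The ratio of Ncaph to Ncaph2 was -2.13, -2.19, -2.37 and -2.08 after 0.1 Gy and lower than in mock in 4 of 4 pairs, by 0.29 ± 0.12 on the log2 scale (exact permutation p = 0.0571, adjusted 0.343). This ratio was not corrected for GC content and length. With the correction the log2 fold change of Ncaph was -0.15 ± 0.09 and that of Ncaph2 -0.03 ± 0.06.

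**Figure D4:**
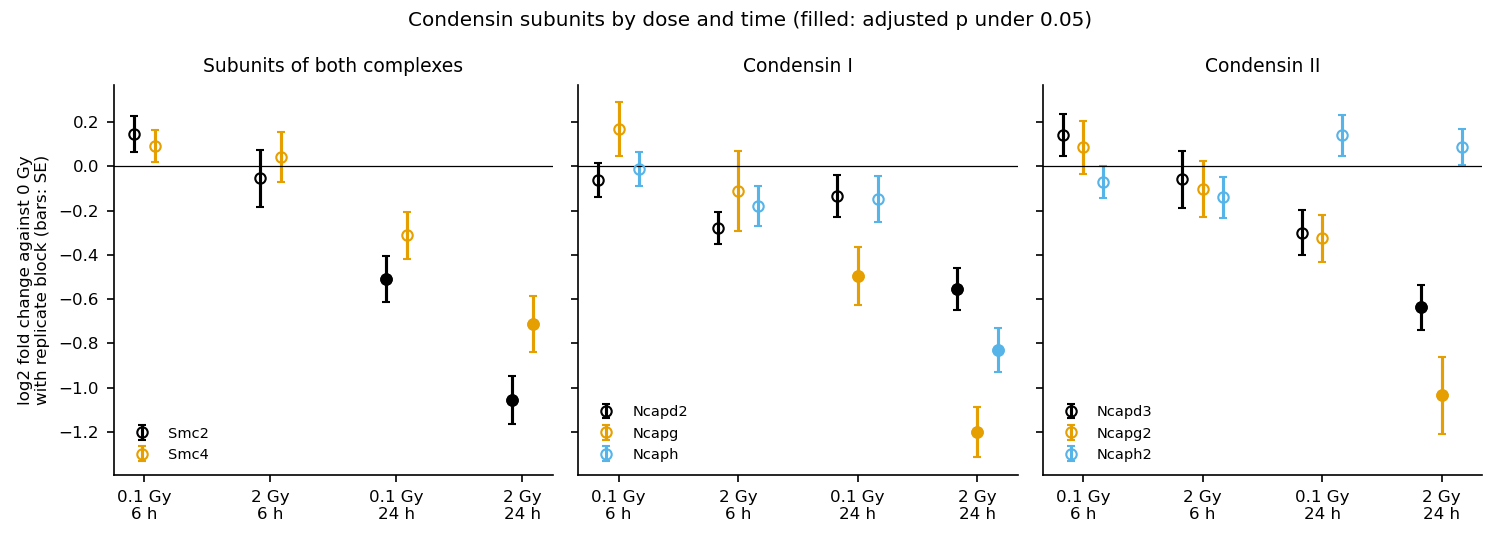
Log2 fold changes against mock with standard errors from the fit with the replicate block, for the shared, condensin I and condensin II subunits at both doses and times. Filled points have an adjusted p under 0.05; these are Smc2 and Ncapg after 0.1 Gy and 7 subunits after 2 Gy, all at 24 h.

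Both doses were also set against each other at 24 h. All 8 subunits had a negative log2 fold change at 2 Gy relative to 0.1 Gy. The median was -0.48, against 0.02 for all genes. None was called with or without the block in all 4 numbers, as with 0% of all genes in either fit, while 4 of the 8 without and 7 with the block had an unadjusted p under 0.05 and were lower, against 1.14% and 2.60% of all genes. Ncaph had 17.7, 17.2, 18.2 and 18.6 CPM after 0.1 Gy, all above its highest level of 11.9 CPM after 2 Gy. Its log2 fold change between the doses was -0.69 ± 0.10 (edgeR, blocked, adjusted p = 0.0727). Ncapd2 and Ncapg also had groups that did not overlap, so that these were the 3 condensin I subunits, against 1.06% of all genes. With the correction for GC content and length 4 of the 8 were called lower, against 0.769% of all genes, namely Smc2 (-0.50 ± 0.07), Ncapd2 (-0.42 ± 0.06), Ncapg (-0.64 ± 0.11) and Ncaph (-0.69 ± 0.08). Without n3 the blocked edgeR fit called Ncapd2 (-0.42 ± 0.08, adjusted p = 0.0363) and Ncaph (-0.71 ± 0.10, adjusted p = 0.0103). In that fit 0.802% of all genes were called lower. DESeq2 called 1 without and 5 with the block, against 0.213% and 0.649% of all genes. The libraries of both doses also enter the comparisons with mock above, so the values are given side by side only.

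Time in culture alone moved no condensin subunit past the threshold. When mock-irradiated cells at 24 h were set against those at 6 h, 0 of the 8 were called, against 6.70% of all genes in the same edgeR fit. DESeq2 and limma voom also called 0, and Ncapd3 alone had an unadjusted p under 0.05, against 12.9% of all genes higher at that p. Ncapd3 had 17.7, 19.7, 24.1 and 16.9 CPM at 6 h and 31.0, 32.3, 18.8 and 28.4 CPM at 24 h. Without n3 of 24 h its groups would not overlap, and with it the log2 fold change was 0.48 ± 0.20 (edgeR, unblocked, adjusted p = 0.178). Leaving out that library, Ncapd3 passed the threshold with 0.63 ± 0.15 (edgeR, unblocked, adjusted p = 0.0259), as did 9.24% of all genes in the higher direction. The other 7 log2 fold changes were between -0.17 and 0.27. Without that library they were between -0.22 and 0.38 and none of the 7 passed, with Smc4 at 0.38 ± 0.14 (adjusted p = 0.0990), Ncapg at 0.37 ± 0.23 and Smc2 at 0.33 ± 0.21. By number these 3 were higher at 24 h in n1, n2 and n4 and lower in n3, although numbers were not taken to pair libraries across times.

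The subunits were also compared over all 24 libraries by Pearson's r of log2 CPM, in which libraries share dose, time and number. Smc2 and Ncapg were most alike (r = 0.92), followed by Smc2 and Ncapg2 (r = 0.88), Ncapg and Ncapg2 (r = 0.86) and Smc4 and Ncapg (r = 0.86). Among 17352 genes, Ncapg ranked 28 in similarity to Smc2 and 7 in similarity to Smc4, and Smc2 ranked 9 in similarity to Ncapg2. Ncaph2 had negative values with 6 of the other 7, down to -0.68 with Smc2, and 0.26 with Ncapd2. The genes with the highest r to Smc2 outside condensin were Kif15, Knl1 and Kif11 (r = 0.97 to 0.98), which encode spindle kinesins and a kinetochore protein. For Ncapg they included the checkpoint kinase Bub1 and the proliferation marker Mki67 (r = 0.96 to 0.97), and for Ncaph they were Birc5, Ndc80 and Melk (r = 0.94 to 0.96). Among the genes close to Smc4 were Nusap1 and Mad2l1 (r = 0.87), and Ncapg2 was closest to Knl1, Kif11 and Gas2l3 (r = 0.92 to 0.93). Ncapd2 was closest to Mcm2, a subunit of the replicative helicase, Mybl2 and Kif22 (r = 0.88 to 0.91). Ncapd3 was closest to G2e3, Zgrf1 and Atad5 (r = 0.93), and Ncaph2 to Fam173a, Mgat4b and Med9 (r = 0.91 to 0.94).

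When the group means were subtracted, so that dose and time no longer entered, the subunits did not move as one. Smc2, Ncapg, Ncapd3 and Ncapg2 still varied together among replicates (r = 0.68 to 0.88 over 24 libraries). Ncaph and Ncapd2 varied together (r = 0.62) and Ncaph had r = 0.00 with Smc2. Ncaph2 had r = -0.87 with Ncapd3 and 0.57 with Ncapd2. The GC content of the first 4 genes was 34.8% to 46.8%, and that of Ncaph, Ncapd2 and Ncaph2 was 48.3% to 55.7%. Smc4, with a GC content of 40.2%, belonged clearly to neither, with r of 0.29 to 0.70 with the first 4 genes and 0.47 with Ncaph. The genes nearest to Smc2 in these deviations were Mbnl2, Sf3b1 and Wasl (r = 0.97 to 0.98), and those nearest to Ncaph2 were Ckb, Mgat4b and Zfp777 (r = 0.94 to 0.95). This grouping was made after the values were seen.

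Beside condensin stand 28 genes of mitotic chromosome condensation, which include topoisomerase, kinesin, kinase and passenger complex genes. After 2 Gy at 24 h 26 of the 28 had a negative log2 fold change, with a median of -0.84 in the unblocked fit, where 0 were called. With the block 20 were called lower and none higher, against 6.69% of all genes called lower, and with GC content and length corrected it was again 20, against 2.14%. Top2a, the topoisomerase that untangles sister chromatids, went from 119 ± 16 to 50.03 ± 10.7 CPM (log2 fold change -1.26, edgeR, blocked, adjusted p = 0.00144). Ccna2, the cyclin of S and G2 phase, went from 38.4 ± 4.11 to 15.0 ± 2.34 CPM (-1.36, adjusted p = 0.00144). Nusap1, Kif4, a kinesin that works with condensin on chromosome arms, and Sgo1, which guards centromeric cohesion, were at -1.25, -1.07 and -1.33 (adjusted p between 0.00193 and 0.00277). These 5 genes were chosen for their small p in this comparison, and their groups did not overlap. Of the 28 genes 17 had groups that did not overlap, against 2.01% of all genes. Mcph1, an inhibitor of condensin II, was at -0.22 (adjusted p = 0.212), Csnk2a1, a kinase that phosphorylates condensin I, at -0.05 (adjusted p = 0.731), and Phf13 and Akap8l at 0.17 and 0.13 (adjusted p = 0.357 and 0.412).

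The other SMC complexes were set beside condensin in the same fits. Cohesin, which holds sister chromatids together and forms loops in interphase, was represented by 10 genes with a median of -0.41 in the unblocked fit, and 7 of them were called lower with the block (6.69% of all genes) and 0 with GC content and length corrected (2.14% of all genes). Its core subunits Smc1a and Smc3 were at -0.27 (adjusted p = 0.105) and -0.42 (adjusted p = 0.0264, edgeR, blocked). For the 9 genes listed for the SMC5/6 complex, which acts in DNA repair, the median was -0.21, and 3 were called lower with the block and 1 with the correction, against the same shares of all genes. Smc5 and Smc6 were at -0.45 (adjusted p = 0.0334) and -0.63 (adjusted p = 0.00968), and Nsmce1 and Nsmce3 were at 0.34 and 0.15 (adjusted p = 0.0655 and 0.412). The list held Eid1, which is not an established subunit and was at -0.00 (adjusted p = 0.983). Without it the median of the 8 genes was -0.26, and the numbers called were again 3 and 1. At 6 h after 2 Gy the median of the condensation genes was -0.17, that of cohesin 0.14 and that of SMC5/6 -0.05 in the unblocked fit. None of these genes was called with or without the block, and 3 condensation genes were called lower once GC content and length were corrected, against 0.213% of all genes. The difference between the lists was not tested.

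**Figure D5:**
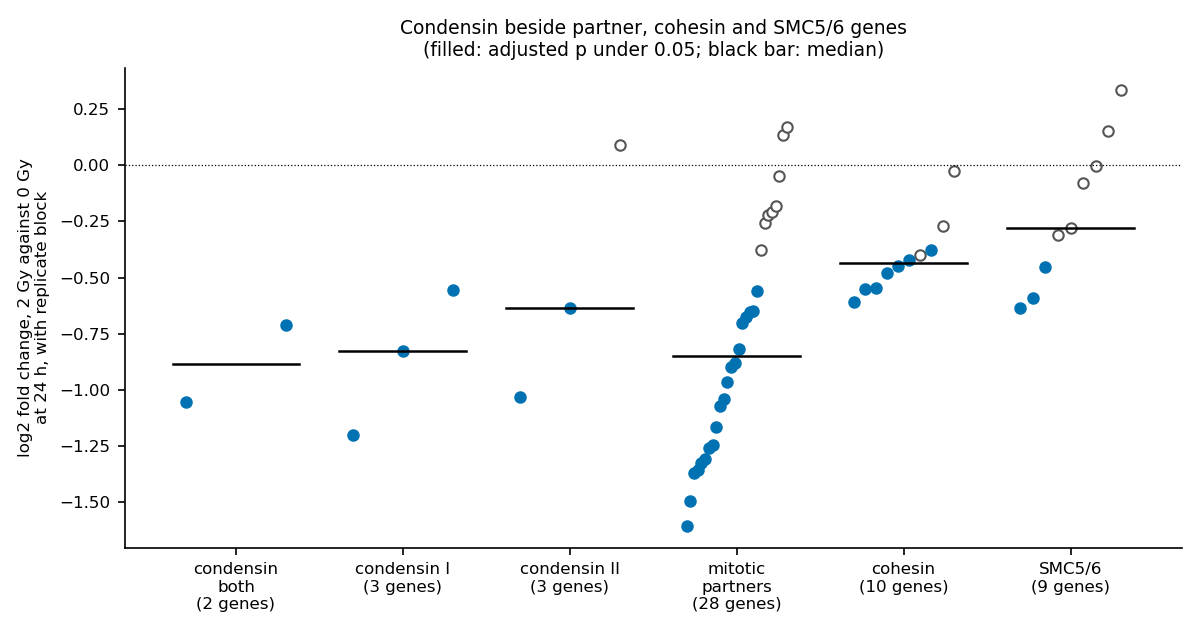
Log2 fold changes, 2 Gy against 0 Gy at 24 h with the replicate block, of the condensin subunits and of genes of mitotic condensation, cohesin and SMC5/6. Each point is a gene, filled where the adjusted p is under 0.05, and black bars are medians; 7 of 8 condensin, 20 of 28 condensation, 7 of 10 cohesin and 3 of 9 SMC5/6 genes are filled.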

How the data were processed

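Polyadenylated mRNA of 24 cultures was sequenced as paired reads, and the authors deposited raw read counts per gene for every library, without normalization or pooling. The build is mm10 per the labels, and the aligner, the counting tool and the use of strand are not given in the sources used here. Groups and numbers were taken from the labels. The 8 subunits and all gene lists were chosen with earlier results of these data known.

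Counts were analysed with edgeR 4.0.16 in R 4.3.3 (TMM normalization, filterByExpr, quasi-likelihood test, Benjamini-Hochberg adjustment over all genes tested), on the 8 libraries of a comparison or the 16 of the interaction. Standard errors are the absolute log2 fold change divided by the square root of F. Levels are CPM with TMM factors of all 24 libraries, in which 17353 genes passed the filter, and log2 CPM used a prior count of 2. Symbols were matched for 48970 of the 49315 genes, exon lengths were those of the deposited tables, and GC content was that of the longest GENCODE M21 transcript. Log2 ratios of counterparts used counts per exon length. Alternatives were DESeq2 1.42.0, limma 3.58.1 (voom), other size factors, other filters on low counts, all 24 libraries in 1 fit, a minimum absolute log2 fold change of 1, a replicate block, the block with splines (5 degrees of freedom) for GC content and length, and each library left out. The block within DESeq2, voom and other size factors, the blocked fits without a number, the overlaps and ratios without n3, and the SMC5/6 list without Eid1, were added after seeing the data. The fits were tested on simulated counts with known changes.

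Deviations of equally numbered libraries from their group means correlated across genes with r between 0.514 and 0.907 in every pair within a time, so the numbers were taken to pair the libraries there, and with r as low as 0.089 between times. In none of 36 pairs of libraries of a group did counts agree within sampling noise (lowest chi-square per degree of freedom 25.86). The genes named were the 8 subunits, of the condensation, cohesin and SMC5/6 genes the 5 with the smallest p in each direction at 2 Gy and 24 h plus Smc1a, Smc3, Smc5, Smc6, Top2a, Mcph1 and Csnk2a1, and for each subunit the 3 most similar other genes, of which 1 is not reported here. Per the study the libraries of a group are biological repeats.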

Additional observations from a re-analysis of the deposited data

Results flagged for a closer look

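In 5 of the 48 sets of 4 libraries a library stood far from the other 3, by Dixon's criterion at the 95% level, where chance flags about 1 in 20. These were Smc4 at 0.1 Gy and 6 h with a highest library of 119 CPM (others 79.6 to 85.9), Ncapg in the same group with 19.6 CPM (others 14.6 to 15.1), Ncaph at 2 Gy and 6 h with a lowest library of 17.3 CPM (others 19.6 to 20.1), Ncapg2 at 0 Gy and 6 h with 21.0 CPM (others 32.6 to 34.0), and Ncaph2 at 0.1 Gy and 24 h with a highest library of 92.0 CPM (others 75.6 to 76.6). None of these sets is a mock or 2 Gy set of 24 h.

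The response to 2 Gy differed between 24 h and 6 h by the interaction term of the blocked edgeR fit for Smc2 (-0.99 on the log2 scale, adjusted p = 0.0335), Smc4 (-0.75, adjusted p = 0.0405), Ncapg (-1.08, adjusted p = 0.0360), Ncaph (-0.64, adjusted p = 0.0336) and Ncapg2 (-0.92, adjusted p = 0.0417). The unblocked fit called none of these, with an adjusted p of 0.819 for each.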

How the results depend on the processing

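The replicate block pairs libraries by number within a time. It raised the subunits called from 0 to 7 (2 Gy, 24 h), 2 (0.1 Gy, 24 h) and 5 (interaction). It also raised the share of all genes called lower from 0% to 6.69%, 4.50% and 3.23%, and the cause was not tested. With the block and the correction for GC content and length the counts were 6, 0 and 3, and 4 for 2 Gy against 0.1 Gy. The shares of all genes called lower were then 2.14%, 0.365%, 1.32% and 0.769%. Without the block, DESeq2 and the fit of all 24 libraries each called 3 at 2 Gy and 24 h and 1 for 2 Gy against 0.1 Gy (0.213% and 0.0864% of all genes lower). With the block, a minimum absolute log2 fold change of 1 left 3 (2 Gy, 24 h), 0 (0.1 Gy, 24 h) and 1 (interaction), against 0.610%, 0.185% and 0.599% of all genes lower. Library size alone with the block called 1 at 0.1 Gy and 24 h (2.02% of all genes lower) and 1 for 2 Gy against 0.1 Gy (0.250%), where DESeq2 called 5 (0.649%). Leaving out a number gave blocked counts of 3 to 7 (2 Gy, 24 h), 0 to 4 (0.1 Gy, 24 h), 0 to 2 (2 Gy against 0.1 Gy) and 0 to 6 (interaction), and unblocked counts of 0 to 1 (24 h against 6 h). In the same order the blocked fits called 0.376% to 16.4%, 0.0925% to 11.8%, 0% to 0.802% and 0% to 11.3% of all genes lower. The unblocked fit that called 1 called 9.24% of all genes higher. Across times the deviations of equal numbers correlated with r = 0.378, 0.8, 0.089 and 0.493 for n1 to n4, so that n3 did not pair and the numbers were not taken to pair there. Small log2 fold changes turned sign with the block and correction: Ncaph2 at 24 h (-0.098 at 2 Gy, -0.031 at 0.1 Gy, -0.018 interaction), Smc4 at 6 h (-0.090 at 2 Gy, -0.010 at 0.1 Gy), and, between 24 h and 6 h, Smc2 (-0.13), Ncapd2 (0.081), Ncapg (-0.12), Ncapg2 (-0.14) and Ncaph2 (0.19). Ncaph at 0.1 Gy and 6 h turned with DESeq2 (0.0063), median-ratio size factors (0.0048) and no filter (0.012). With a library left out, ranges crossed 0 at 2 Gy and 6 h for Smc2 (-0.19 to 0.028), Smc4 (-0.042 to 0.16), Ncapg (-0.29 to 0.020) and Ncapd3 (-0.13 to 0.058); at 0.1 Gy and 6 h for Smc2 (-0.0038 to 0.23), Smc4 (-0.051 to 0.23), Ncapd2 (-0.13 to 0.046), Ncapg (-0.018 to 0.30), Ncaph (-0.15 to 0.095) and Ncapg2 (-0.069 to 0.14); for Ncapd2 at 0.1 Gy and 24 h (-0.21 to 0.0092); for Ncaph2 at 2 Gy and 24 h (-0.031 to 0.22) and against 0.1 Gy (-0.17 to 0.015); and between times for Ncapd2 (-0.18 to 0.065), Ncapg2 (-0.13 to 0.15) and Ncaph2 (-0.16 to 0.075). The ratio of Ncapd2 to Ncapd3 ranged from -0.21 to 0.40 (2 Gy, 24 h) and -0.0092 to 0.48 (0.1 Gy, 24 h), that of Ncapg to Ncapg2 from -0.34 to 0.047 (2 Gy, 24 h) and -0.047 to 0.12 (2 Gy, 6 h), and that of Ncaph to Ncaph2 from -0.11 to 0.089 (2 Gy, 6 h) and -0.058 to 0.18 (0.1 Gy, 6 h). The 7 subunits lower at 2 Gy and 24 h kept their sign under every alternative run. Of the log2 fold changes of single subunits 456 kept direction and side of the threshold under other settings and 35 newly passed it.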
